A study of Homo sapiens with 4 samples.

Results

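The cancer-testis antigen families examined here are the MAGE-A, MAGE-B and MAGE-C genes and the CTAG, SPANX, GAGE, PAGE, XAGE, SSX, CSAG, CT45A, CT47A, PRAME, PASD1 and BAGE genes. They were chosen by gene symbol, and 161 of the 57879 genes in the files matched. The set was proposed because earlier results of the same contrast had several of these genes higher with TET1-CD. Their values below, and the calls given for single genes, are therefore descriptions, and the set as a whole was not tested. The symbol rule also caught 16 CTAGE genes and SSX2IP, which match by the first letters of their symbols and do not belong to the CTAG and SSX families. CTAGE5 encodes an endoplasmic reticulum exit site protein and SSX2IP a binding partner of SSX2 at the centrosome and cell junctions, and these 17 genes are given apart from the other 144.

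RNAseq was done in T24, a human bladder carcinoma cell line grown in RPMI medium with fetal calf serum. EV cells (labelled control) carried the empty lentiviral vector, and TET1-CD cells expressed the FLAG-tagged catalytic domain of TET1, with 2 libraries in each group. Per the study's methods, both were puromycin-selected populations of stably transduced cells, and no library of a catalytically inactive TET1-CD was analysed here. Whether the libraries of a group came from separate cultures is not stated, so p-values measure only the spread between these libraries. Each library held between 17442143 and 20295266 estimated fragments. TET1 had 111 and 83 counts in the EV libraries and, with TET1-CD, 2939 and 3310. It rose by 5.02 ± 0.08 on the log2 scale (edgeR's estimate ± its standard error, SE, with adjusted p = 4.9e-10). The introduced domain is TET1 sequence, so its fragments and those of the endogenous gene were not told apart.

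Cancer-testis antigens are proteins made in the germ cells of the testis and, in most other adult tissues, not at all. Most of their genes stand in repeated, nearly identical copies on the X chromosome, their promoters are methylated in somatic cells, and many tumours re-express some of them. TET enzymes oxidise 5-methylcytosine to 5-hydroxymethylcytosine and further products, a step of DNA demethylation, and the catalytic domain carries this activity. Type I MAGE proteins bind RING-type ubiquitin ligases, CTAG2 (LAGE-1) is the close relative of NY-ESO-1, and SPANX proteins are named for the sperm nucleus.

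The promoters are shown for 6 members. MAGEC2 and MAGEB1 were listed at 0 in EV libraries, and SPANXC and MAGEB2 had counts in EV cells and rose. MAGEA3 and MAGEA12 were abundant in both groups and were not called. XAGE1E, the member called lower, and the families at 0 in all libraries are not among them. Each window shown is the 300 bases from 250 before to 50 after the RefSeq start on GRCh38.p14. It is written 5′ to 3′ on the gene's strand, with every CG dinucleotide, the site of DNA methylation, in capitals. MAGEC2 is at chrX:142205241-142205540 (minus strand), MAGEB1 at chrX:30246896-30247195 (plus), SPANXC at chrX:141242468-141242767 (minus), MAGEB2 at chrX:30215313-30215612 (plus), MAGEA3 at chrX:152698544-152698843 (plus) and MAGEA12 at chrX:152733612-152733911 (plus). The files, on GRCh37, give MAGEA3 and MAGEA12 on the minus strand.
MAGEC2: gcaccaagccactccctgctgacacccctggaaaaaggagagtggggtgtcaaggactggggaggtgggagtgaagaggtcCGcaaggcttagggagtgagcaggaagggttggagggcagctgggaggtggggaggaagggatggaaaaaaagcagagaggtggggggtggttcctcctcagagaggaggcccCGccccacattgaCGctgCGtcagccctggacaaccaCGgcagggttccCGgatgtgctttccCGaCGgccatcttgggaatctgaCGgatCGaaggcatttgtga
MAGEB1: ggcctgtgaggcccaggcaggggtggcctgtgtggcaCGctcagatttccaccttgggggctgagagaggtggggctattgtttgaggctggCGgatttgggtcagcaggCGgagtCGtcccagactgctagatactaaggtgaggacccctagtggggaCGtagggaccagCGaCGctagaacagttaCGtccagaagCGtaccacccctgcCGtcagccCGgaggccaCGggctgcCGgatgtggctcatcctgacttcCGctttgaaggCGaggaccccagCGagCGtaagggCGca
SPANXC: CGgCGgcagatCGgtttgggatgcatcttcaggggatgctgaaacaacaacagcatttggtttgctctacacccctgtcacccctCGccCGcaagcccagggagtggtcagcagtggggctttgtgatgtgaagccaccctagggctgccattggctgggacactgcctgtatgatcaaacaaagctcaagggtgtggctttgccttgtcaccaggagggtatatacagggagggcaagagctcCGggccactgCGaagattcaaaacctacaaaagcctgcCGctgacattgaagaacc
MAGEB2: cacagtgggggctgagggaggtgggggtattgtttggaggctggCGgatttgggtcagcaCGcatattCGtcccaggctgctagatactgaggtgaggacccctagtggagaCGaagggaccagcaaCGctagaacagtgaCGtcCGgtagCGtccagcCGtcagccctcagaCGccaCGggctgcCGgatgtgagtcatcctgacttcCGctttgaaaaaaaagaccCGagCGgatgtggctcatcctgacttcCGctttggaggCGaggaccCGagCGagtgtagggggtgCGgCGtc
MAGEA3: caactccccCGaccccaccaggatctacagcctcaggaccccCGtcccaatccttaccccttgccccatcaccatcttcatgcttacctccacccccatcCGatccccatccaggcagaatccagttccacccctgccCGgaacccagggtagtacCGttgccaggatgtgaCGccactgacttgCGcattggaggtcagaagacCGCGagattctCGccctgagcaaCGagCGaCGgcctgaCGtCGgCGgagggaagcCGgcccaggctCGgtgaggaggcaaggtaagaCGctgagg
MAGEA12: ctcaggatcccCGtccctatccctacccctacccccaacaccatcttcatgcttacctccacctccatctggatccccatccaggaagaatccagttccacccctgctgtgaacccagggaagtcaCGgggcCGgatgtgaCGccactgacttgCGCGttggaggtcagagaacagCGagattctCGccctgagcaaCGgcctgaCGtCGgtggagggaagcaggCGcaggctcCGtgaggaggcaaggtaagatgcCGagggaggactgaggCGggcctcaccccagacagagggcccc

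The MAGEC2 window held 10 CG dinucleotides, most of them in its last stretch around the start site. MAGEB1 held 18, MAGEB2 21, MAGEA3 19 and MAGEA12 15, and SPANXC only 8. Over all 35116 RefSeq promoter windows, the median was 14 CG dinucleotides and the quartiles were 4 and 28. After the sequences had been read, GGATGTG, an ETS-like run that recurs in them, was searched on both strands. It was found in MAGEC2, MAGEB1, MAGEA3 and MAGEA12, and at 2 places in MAGEB2, but not in SPANXC. A match is a description of the letters only, and the methylation of these windows was not analysed here.

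Of the 161 members, 93 were listed at 0 in all libraries and 68 had a count in at least 1. A count was found for 38 members in each EV library, and for 53 and 55 members in the TET1-CD libraries. Among the 144 members without CTAGE genes and SSX2IP, 6845 and 5987 fragments were counted in EV and 10472 and 11856 in TET1-CD libraries. These were 0.0337% and 0.0343% of all fragments in the EV libraries and, with TET1-CD, 0.0598% and 0.0607%, so the groups did not overlap. Most of them came from MAGEA1, MAGEA3, MAGEA6, MAGEA12 and MAGEB2, which held 94.6% and 94.2% in EV and 88.7% and 88.1% in TET1-CD libraries. Much of the difference between groups lay in MAGEB2 alone, with 1308 and 1252 fragments in EV and 4450 and 4952 in TET1-CD libraries. None of these MAGE-A genes was called.

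Only 25 members had enough fragments for edgeR's filter. A gene was called where the fold reached 2 with an adjusted p under 0.05 in edgeR's quasi-likelihood test. By this rule 12 members were called higher in TET1-CD cells, 1 was called lower and 12 were not called. Over all 14573 genes tested, 2.72% were called higher and 1.04% lower, 3.77% in all. DESeq2 called 10 of the 12 members higher, where it called 1.6% of all genes, and edgeR called 7 without TET1-CD replicate 2. A member that was at 0 in EV could enter the test only by its counts in TET1-CD cells, and the set was chosen on this contrast, so the counts of members are not read against these shares. The median log2 fold change was 0.95 over the tested members and 0.00 over all genes. The tested members include 3 CTAGE genes and SSX2IP, none of them called. The median is the value of CTAGE4 itself (SE 0.83), so it does not describe the cancer-testis families alone. Both TET1-CD libraries lay above both EV libraries for 17 tested members (30.8% of all genes tested) and below them for 2 (30.2%), and the groups overlapped for 6. In these bulk libraries, more cells with a transcript and more transcript in each cell cannot be told apart.

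**Figure D1:**
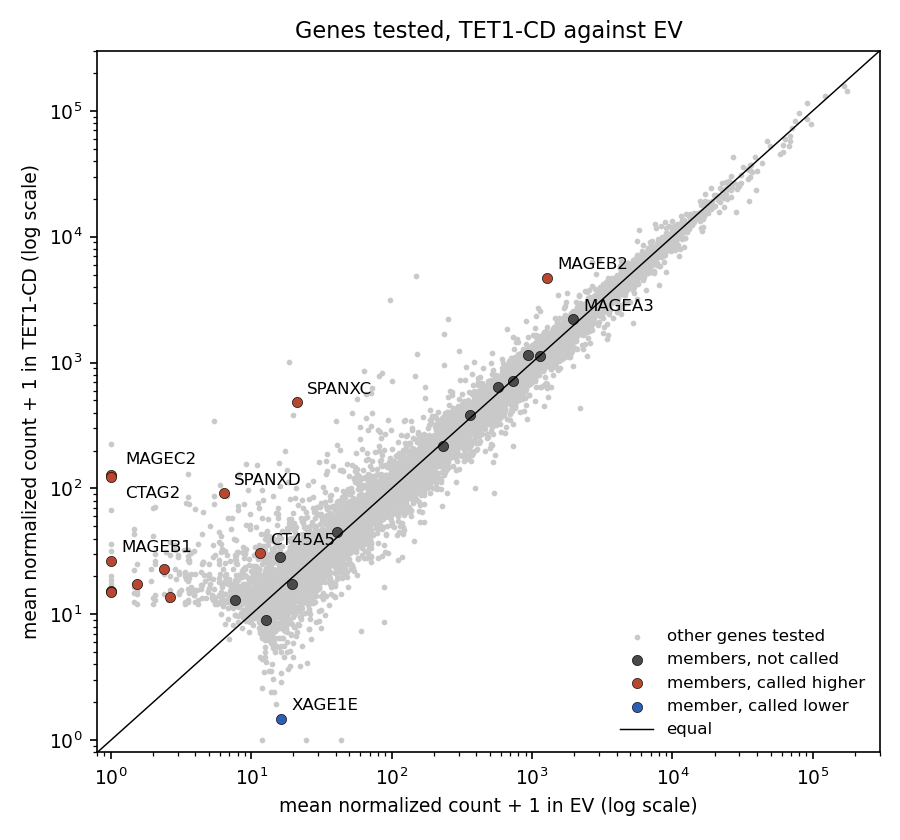
Mean TMM-normalised counts plus 1 in the 2 TET1-CD libraries (vertical axis, log scale) against the 2 EV libraries (horizontal axis, log scale) for the 14573 genes tested; the line marks equal levels. The members called higher (red) lie above the line, those at the left edge were listed at 0 in EV libraries, and MAGEA3 and the other abundant MAGE-A genes (dark grey) lie near it.

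The MAGE-C family has 3 genes. MAGEC2, which binds the ligase TRIM28, lies on chromosome X from 141290131 to 141293076 (GRCh37, as in the files) in a single transcript. It had 0 and 0 counts in the EV libraries and, with TET1-CD, 111 and 144. Both TET1-CD libraries were therefore far above EV, and MAGEC2 rose at least 42.5-fold, counted against a floor of 3 counts per library that covers counting error only. MAGEC1 had 1 and 0 counts in the EV libraries and, with TET1-CD, 6 and 9, and MAGEC3 had 2 and 0 in the EV libraries and, with TET1-CD, 0 and 0. Neither had enough counts for the test.

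CTAG2, on chromosome X from 153880246 to 153881853, encodes LAGE-1. It had 0 and 0 counts in the EV libraries and, with TET1-CD, 109 and 134, and it rose at least 40.6-fold against the same floor. Its partner genes CTAG1A and CTAG1B, which encode NY-ESO-1, had at most 2 counts in any library. Of all 100-base stretches in the GENCODE transcripts of CTAG2, 16.3% also occur in those of another gene, mainly CTAG1B, so that a small part of its fragments could belong to that gene.

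The 11 MAGE-B genes that matched lie on the short arm of chromosome X, from 16185604 (MAGEB17) to 35821852 (MAGEB16), and MAGEB1, MAGEB2, MAGEB3 and MAGEB4 stand side by side. MAGEB2, from 30233677 to 30238206, had 1308 and 1252 counts in the EV libraries and, with TET1-CD, 4450 and 4952. It was the most abundant of the members that rose, with normalised counts of 1279 ± 102 in EV cells against 4726 ± 13.6 with TET1-CD (SD, n = 2 in each), a log2 fold change of 1.89 (SE 0.06) or 3.7-fold. MAGEB1, from 30261847 to 30270155, had 0 and 0 counts in the EV libraries and, with TET1-CD, 24 and 27, at least 8.54-fold higher. No stretch of 100 bases of MAGEB1 or MAGEB2 occurs in another gene's transcripts. The 7 other MAGE-B genes with a count had at most 5 in any library, and the family sum moved from 1314 and 1256 to 4484 and 4990, 3.71-fold.

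SPANX genes encode small proteins of the sperm nuclear envelope, and 11 matched. SPANXC, on chromosome X from 140335596 to 140336629, had 19 and 21 counts in the EV libraries and, with TET1-CD, 447 and 513. The libraries within each group were close, and normalised counts were 20.1 ± 3.63 in EV cells against 482 ± 9.12 with TET1-CD (SD, n = 2 in each), 24-fold. SPANXD, from 140785568 to 140786896, had 7 and 4 counts in the EV libraries and, with TET1-CD, 79 and 102, which is 16.8-fold. SPANXA2 had 3 and 0 counts in the EV libraries and, with TET1-CD, 26 and 17, a ratio of 14.5 with a 95% exact counting interval of 4.64 to 73.0. These genes are near copies. Every 100-base stretch of SPANXA2 also occurs in another gene, 35.5% of those of SPANXC do and 3.3% of those of SPANXD, so SPANXA2 is uncertain as a single gene. It was also not called without TET1-CD replicate 1, and its log2 fold change was 2.92 without control replicate 2 and 7.41 without control replicate 1. The sum over the family, which does not depend on how fragments were divided within it, was 32 and 26 in the EV libraries and, with TET1-CD, 554 and 648, or 28.8 ± 1.04 and 603 ± 19.5 after normalisation (SD, n = 2), 21-fold.

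Among the 15 MAGE-A genes, the abundant members were not called, and 2 with few or no counts in EV cells were called higher. MAGEA1 had 1208 and 1062 counts in the EV libraries and, with TET1-CD, 1048 and 1177, and MAGEA12 had 761 and 695 in the EV libraries and, with TET1-CD, 680 and 728. Their log2 fold changes were -0.02 (standard error 0.06) and -0.03 (standard error 0.07), and neither was called. MAGEA3 and MAGEA6, which bind TRIM28 as MAGEC2 does, are near copies, and 39.05% and 46.2% of their 100-base stretches are shared. MAGEA3 had 2169 and 1783 counts in the EV libraries and, with TET1-CD, 2065 and 2347, with a log2 fold change of 0.18 (SE 0.06). MAGEA6 had 1030 and 846 counts in the EV libraries and, with TET1-CD, 1046 and 1240, with a log2 fold change of 0.30 (SE 0.06). After normalisation both TET1-CD libraries lay above both EV libraries for these near copies, and both genes were below the fold required.

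Lower in the same family, MAGEA4 had 0 and 0 counts in the EV libraries and, with TET1-CD, 11 and 18, at least 4.8-fold higher. MAGEA10 had 0 and 3 in the EV libraries and, with TET1-CD, 13 and 12, a ratio of 8.42 (95% exact counting interval 2.57 to 43.6). Both were called higher on few fragments. MAGEA4 was not called without TET1-CD replicate 2. MAGEA10 was not called by DESeq2, nor by edgeR without control replicate 1 or either TET1-CD library, and its log2 fold change was 1.91 without control replicate 1 and 6.70 without control replicate 2. MAGEA2 (24 and 14 counts in EV, 15 and 18 in TET1-CD libraries) and MAGEA2B (5 and 8 in EV, 12 and 12 in TET1-CD libraries) were not called and are nearly identical, so their separate counts are uncertain. MAGEA11 and MAGEA8 had at most 5 counts in any library, and the remaining 5 MAGE-A genes were listed at 0. The sum over the family was 5198 and 4411 in the EV libraries and, with TET1-CD, 4900 and 5557, 1.1-fold.

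**Figure D2:**
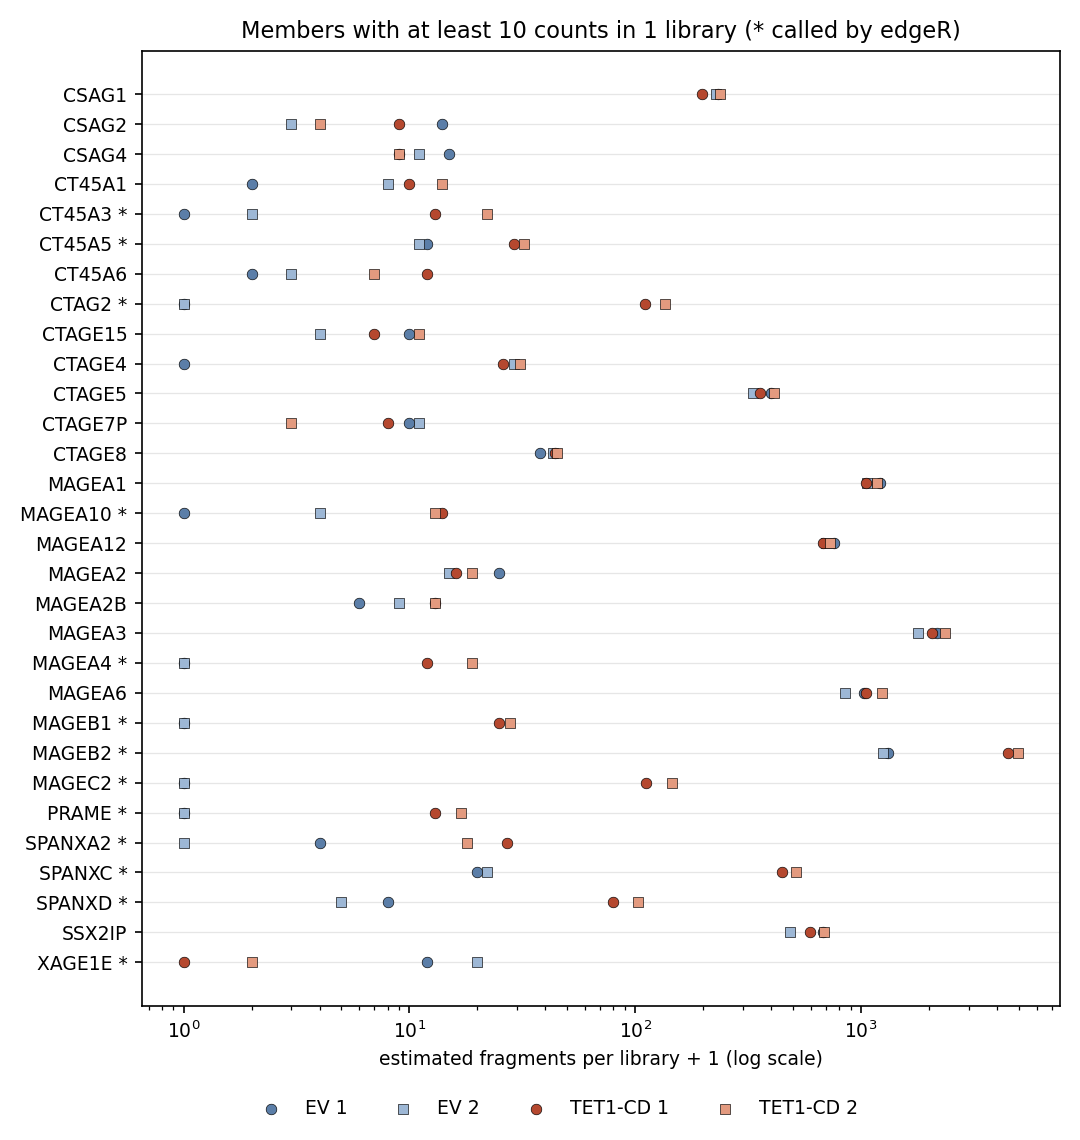
Estimated fragments plus 1 in each library (horizontal axis, log scale) for the 30 members with at least 10 in 1 library; blue marks are EV and red marks TET1-CD libraries, and an asterisk marks members called by edgeR. MAGEC2, CTAG2, MAGEB1, MAGEA4 and PRAME are at 0 counts in both EV libraries, while the marks of MAGEA1, MAGEA12 and CSAG1 lie close together.

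CT45A genes encode nuclear proteins and form a cluster of near copies on chromosome X, between 134847185 and 134971244 for the 4 named here. CT45A5 had 11 and 10 counts in the EV libraries and, with TET1-CD, 28 and 31 and rose 2.83-fold, with a log2 fold change of 1.49 (SE 0.37). It was not called by DESeq2, nor by edgeR without control replicate 1 or without either TET1-CD library. The share of its stretches that occur in other genes could not be counted. CT45A3 had 0 and 1 counts in the EV libraries and, with TET1-CD, 12 and 21, a ratio of 33.3 (95% exact counting interval 5.58 to 1360). All of its 100-base stretches occur in another gene, and it was not called without TET1-CD replicate 2. CT45A1 (1 and 7 counts in EV, 9 and 13 in TET1-CD libraries) and CT45A6 (1 and 2 in EV, 11 and 6 in TET1-CD libraries) had too few counts for the test. The family sum, 13 and 20 in the EV libraries and, with TET1-CD, 62 and 79, was 4.21-fold higher and did not overlap.

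PRAME, a substrate receptor of a CUL2 ubiquitin ligase and a repressor of retinoic acid receptor signalling, is the one called member that does not lie on the X chromosome. It lies on chromosome 22 from 22890123 to 22901768. It had 0 and 0 counts in the EV libraries and, with TET1-CD, 12 and 16, at least 4.66-fold higher, and it was not called without TET1-CD replicate 2. Of the other genes with PRAME in their symbol, PRAMEF4 had 1 count in 1 EV library, and the rest were listed at 0.

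XAGE1E was the one member called lower. It had 11 and 19 counts in the EV libraries and, with TET1-CD, 0 and 1, a ratio of 0.0337 (95% exact counting interval 0.000826 to 0.203). Every 100-base stretch of it is shared with another gene, so the gene itself is uncertain. DESeq2 did not call it, nor did edgeR without control replicate 2 or either TET1-CD library. The sum over the 9 XAGE genes was 12 and 24 in the EV libraries and, with TET1-CD, 1 and 3, 9.43-fold lower, with both TET1-CD libraries below EV.

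The CSAG genes, which stand between MAGE-A genes, were not called. CSAG1 had 232 and 227 counts in the EV libraries and, with TET1-CD, 197 and 237, with a log2 fold change of -0.07 (SE 0.12). CSAG4 had 14 and 10 counts in the EV libraries and, with TET1-CD, 8 and 8, and CSAG2, which was not tested, 13 and 2 in the EV libraries and, with TET1-CD, 8 and 3. Sequence of both is wholly shared with other genes. The sums of the remaining families stayed low: SSX, named for the synovial sarcoma fusion genes, had 3 and 6 counts in the EV libraries and, with TET1-CD, 8 and 8, and PAGE, PASD1 and BAGE had at most 7 in any library. The 17 GAGE genes and the 12 CT47A genes were listed at 0 in all libraries.

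CTAGE5 (399 and 330 counts in EV, 357 and 410 in TET1-CD libraries) and SSX2IP (676 and 485 in EV, 595 and 681 in TET1-CD libraries) were not called. Their raw counts overlapped between groups, and after normalisation both TET1-CD libraries lay above both EV libraries, at 385 ± 7.48 against 362 ± 8.54 for CTAGE5 and 641 ± 10.9 against 574 ± 71.0 for SSX2IP (SD, n = 2). CTAGE8 had 37 and 42 counts in the EV libraries and, with TET1-CD, 43 and 44. CTAGE4 had 0 and 28 counts in the EV libraries and, with TET1-CD, 25 and 30, so its EV libraries differed from each other as much as the first did from TET1-CD. Without control replicate 2 it was called, and without control replicate 1 its log2 fold change was -0.14. CTAGE15 and CTAGE7P had at most 10 counts in any library and were not tested. Of the 43 members with a count that were not tested, the summed raw counts were higher in TET1-CD for 30 and in EV for 13, where the shares over all 10587 such genes were 47.2% and 42.9%. Of the 68 members with a count, 12 were at 0 in both EV libraries and above 0 in both TET1-CD libraries, and 2 showed the reverse. Over all 25160 genes with a count these shares were 2.12% and 1.35%. As the members were chosen on this contrast, nothing is read from these counts.

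**Figure D3:**
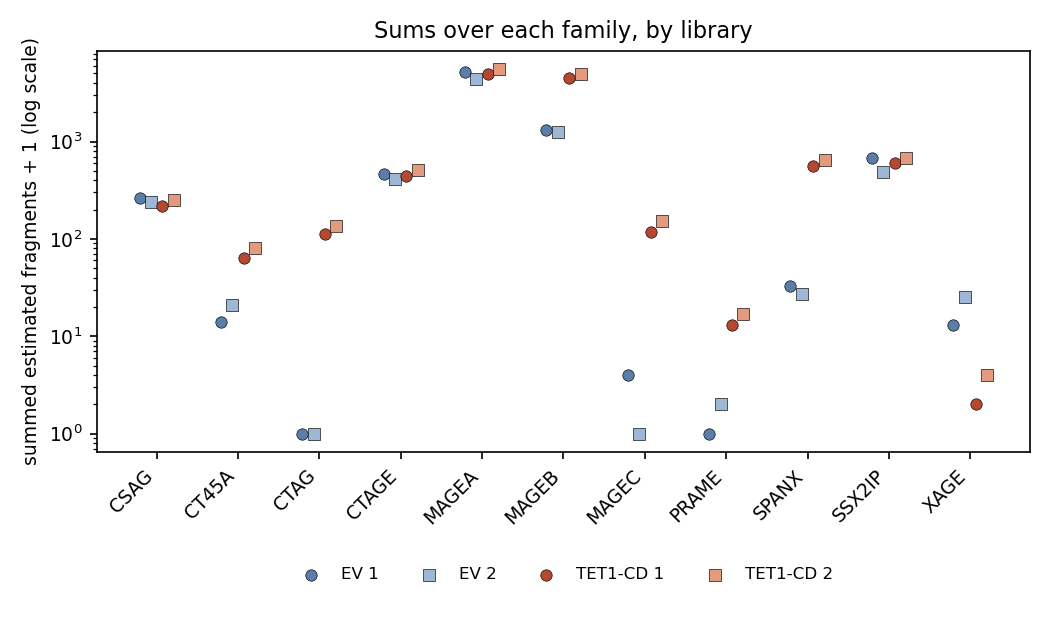
Sum of estimated fragments plus 1 (vertical axis, log scale) over each family with at least 10 in 1 library, by library; blue marks are EV and red marks TET1-CD. The MAGEC, CTAG, SPANX, MAGEB, CT45A and PRAME sums are higher and the XAGE sum is lower in both TET1-CD libraries, and the MAGEA, CSAG, CTAGE and SSX2IP sums differ by 0.938- to 1.12-fold between groups.

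Levels of different genes were compared per length, as FPKM, the deposited values of fragments scaled by transcript length and library depth. In EV cells, MAGEA3 stood first with 61.6 and 59.0 FPKM, followed by MAGEB2 with 40.0 and 44.6, and MAGEA1 with 34.9 and 35.6. In TET1-CD cells, MAGEB2 stood first with 158 and 157 FPKM. MAGEA3 followed with 68.0 and 69.6, and SPANXC, which had 2.42 and 3.11 in EV cells, with 66.0 and 67.9, so that the values of MAGEA3 and SPANXC nearly touched. MAGEA6 (34.4 and 36.6) and MAGEA1 (35.0 and 35.3) overlapped. The members listed at 0 in EV reached lower levels: CTAG2 had 7.39 and 8.21 FPKM, MAGEC2 3.18 and 3.70, MAGEB1 0.80 and 0.79, PRAME 0.44 and 0.65 and MAGEA4 0.45 and 0.53.

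The X-linked members called higher lie in several separate places of the chromosome. Other tested genes of chromosome X, 485 of them, had a median log2 fold change of 0.03. Of these, 15 were called higher and 5 lower, where the shares over all genes tested were 2.72% and 1.04%. Within 250 kb of an X-linked member called higher, 26 genes that are not members were tested. Genes around PRAME and XAGE1E were not examined in this way. H2AFB1, a histone H2A variant gene near CTAG2, was called higher, with 2 and 3 counts in the EV libraries and, with TET1-CD, 17 and 12 (log2 fold change 2.50, SE 0.66, adjusted p = 0.0262 by edgeR). Its near copies on the same chromosome could share its fragments. The other 25 genes were not called. IKBKGP1, the nearest to CTAG2, had 30 and 30 counts in the EV libraries and, with TET1-CD, 54 and 47, and LDOC1, the nearest to SPANXC, 1942 and 1761 in the EV libraries and, with TET1-CD, 1922 and 2240.

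Promoter windows from RefSeq were matched for 91 members by symbol or gene ID. The median number of CG dinucleotides was 10 (range 0 to 21) over the 83 that are not CTAGE genes or SSX2IP. The 8 windows of members called higher held between 4 (PRAME) and 21 (MAGEB2), with a median of 9. The 6 windows of tested members that were not called, MAGEA2, MAGEA2B, MAGEA3, MAGEA6, MAGEA12 and CSAG1, held between 15 and 19, with a median of 17. The 2 ranges overlap, and several of these windows are near copies of each other, so they are not independent. For MAGEB1, MAGEA4 and PRAME (in this order), the window lies 3416, 3060 and 5165 bases inside the gene as the files give it, where its sequence was found on GRCh37.

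**Figure D4:**
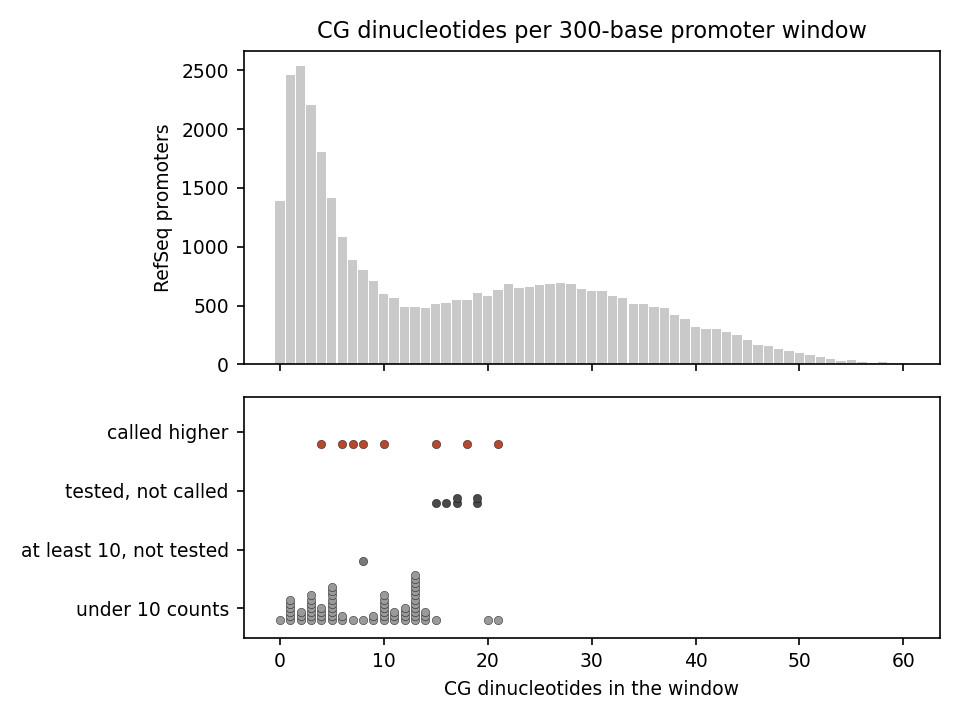
Number of CG dinucleotides in 300-base promoter windows: all 35116 RefSeq windows as a histogram (top), and the windows of cancer-testis members by their call as 1 dot each (bottom), without CTAGE genes and SSX2IP. Windows of members called higher spread from 4 to 21 and those of tested members not called from 15 to 19, while the upper quartile of all windows was 28.

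GGATGTG was found on either strand in 23 of the 91 windows and in 4.29% of all RefSeq windows. All 10 MAGE-A windows held it, as did 2 of 9 MAGE-B, 2 of 3 MAGE-C and 2 of 7 SSX windows, those of CSAG1 and CSAG3 and 5 CTAGE windows, and none of the 9 SPANX, 12 GAGE, 18 PRAME and PRAMEF, 6 PAGE or 5 XAGE windows. The run extended by a CG dinucleotide, CGGATGTG, was found in 16 member windows, none of them of CTAGE genes, and in 0.67% of all. The windows of CSAG1 and MAGEA12 overlap, as do those of CSAG3 and MAGEA2, and each pair holds the same site, and CTAGE15 is listed under 2 gene IDs with 1 window. Counted by place, with windows that hold several, GGATGTG was found at 23 places and CGGATGTG at 16. It was found in members that rose (MAGEC2, MAGEB1, MAGEB2, MAGEA4) and in members that were not called (MAGEA12, MAGEA2, CSAG1). The ETS core CCGGAA was found in 4 member windows, MAGEA3, MAGEA6, MAGEB6 and MAGEB16, and in 17.2% of all.

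Other cancer-testis genes, outside the families above, were listed by hand with earlier results of these data known. Of 57 in the files, 17 were tested, with a median log2 fold change of 0.12. Among them 3 were called higher and 1 lower, where the shares over all genes tested were 2.72% and 1.04%. Nothing is read from these counts. TEX15, needed for meiotic recombination and for silencing of transposons in male germ cells, had 12 and 5 counts in the EV libraries and, with TET1-CD, 134 and 179 (log2 fold change 4.2, SE 0.28, adjusted p = 9.16e-06 by edgeR). PLAC1, a placental protein, had 16 and 15 counts in the EV libraries and, with TET1-CD, 46 and 43 (log2 fold change 1.53, SE 0.31, adjusted p = 0.00815 by edgeR). HORMAD1 (log2 fold change 1.66) and ZNF165 (log2 fold change -1.09), named after their values were seen, were the other genes called. DESeq2 called TEX15 alone of these 4, as did edgeR without either TET1-CD library. HORMAD1 and ZNF165 were also not called without control replicate 1, nor without control replicate 2. CTCFL (BORIS), a germ cell relative of CTCF, had 0 and 0 counts in the EV libraries and, with TET1-CD, 1 and 1. IGF2BP3, the third of the list by p, had a log2 fold change of 0.37, below the fold required.

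Type II MAGE genes, many of which are made in most tissues, gave 6 tested of 12 and none was called by edgeR. Of the 12, 5 were listed at 0 in all libraries (MAGED4, MAGED4B, MAGEE2, MAGEL2 and NDN), and TRO had at most 1 count. Their summed counts were 7396 to 8119 in EV and 7310 to 8350 in TET1-CD libraries. MAGED1 had 3592 and 3208 counts in the EV libraries and, with TET1-CD, 3403 and 3895, with a log2 fold change of 0.11 (SE 0.05, adjusted p = 0.17 by edgeR). MAGEF1 and MAGEE1 had log2 fold changes of -0.14 and -0.20.

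Partners of MAGE, SSX and PRAME proteins numbered 22 in the files, and of 21 tested none was called. TRIM28 had 4718 and 3975 counts in the EV libraries and, with TET1-CD, 4352 and 4921, with a log2 fold change of 0.11 (SE 0.05, adjusted p = 0.169 by edgeR). USP7, SMC6 and RARA had log2 fold changes of 0.24, 0.26 and -0.25.

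The machinery of DNA methylation and gene repression was likewise not called, with 46 of 47 genes tested and a median log2 fold change of 0.01. DNMT1, the maintenance methyltransferase, had 2779 and 1983 counts in the EV libraries and, with TET1-CD, 2673 and 2958, with a log2 fold change of 0.27 (SE 0.08, adjusted p = 0.0392 by edgeR), below the fold required. Its cofactor UHRF1 had a log2 fold change of 0.23, and the de novo enzymes DNMT3A and DNMT3B 0.01 and -0.04. TET2, KDM5B and ZBTB4 had log2 fold changes of -0.36, -0.30 and -0.24.

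Germ cell markers were for the most part at 0 or at low counts. Of 35 in the files, 15 were listed at 0 in all libraries, among them DDX4, PRM2, TNP1 and ODF1, which define germ cells and sperm, and 6 were tested. SOHLH1, a transcription factor of early germ cells, had 2 and 0 counts in the EV libraries and, with TET1-CD, 12 and 23, a ratio of 17.7 (95% exact counting interval 4.54 to 152, adjusted p = 0.00995 by edgeR). SMC1B, a meiotic cohesin subunit, had 8 and 8 counts in the EV libraries and, with TET1-CD, 28 and 30 (log2 fold change 1.86, SE 0.40, adjusted p = 0.0105 by edgeR). These 2 were the genes called in the list, where 2.72% of all genes tested were called higher. TEX19, POU5F1 and REC8, named after their values were seen, had log2 fold changes of -1.54, -0.58 and -0.43 and were not called. The median over the tested markers was -0.02. The summed counts of the list were 1406 to 1714 in EV and 1856 to 2120 in TET1-CD libraries, most of them from ODF2, which is also a centrosome gene of somatic cells (log2 fold change 0.39). Without TET1-CD replicate 2 neither SOHLH1 nor SMC1B was called. The part of this list in the members' values was not tested.

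Of the 15 markers of other cell types, 4 were tested and none was called, and their summed counts were 174 to 194 in EV and 153 to 161 in TET1-CD libraries. ACTA2, CDH5 and CD14, the first by p, had log2 fold changes of -0.35, 0.88 and -0.47. ALB was listed at 0 and PTPRC had at most 2 counts. The label of the line was checked on 22 urothelial markers. The epithelial keratins KRT7, KRT8 and KRT18 each had at least 10759 counts in every library, and PPARG had 363 to 461 and FOXA1 366 to 587. GATA3 had 19 to 46 counts and UPK3B 16 to 38. The other uroplakins, UPK1A, UPK1B, UPK2 and UPK3A, had at most 6, and KRT5, KRT13 and KRT20 were at 0. CDH1, TP63 and GRHL3 had at most 2 counts in any library, and EPCAM had 46 to 86. On the same list, VIM had 43958 to 63997 counts and CDH2 3035 to 3859. The line thus carried some markers of its label, while several that define urothelium were at or near 0. In this list 12 were tested and 2 called higher, KRT19 (log2 fold change 1.01, adjusted p = 0.00273 by edgeR) and, named after its values were seen, GATA3 (log2 fold change 1.25), of which 1 was called by DESeq2 and none without TET1-CD replicate 1. Over all genes tested, 2.72% were called higher. KRT7 and VIM had smaller adjusted p than both (0.00175 and 0.00232 by edgeR). Their log2 fold changes of 0.34 and -0.39 were below the fold required.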

How the data were processed

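The members, gene lists and tests were chosen with earlier results of these data known. The authors deposited estimated counts of fragments and FPKM for each transcript of 4 T24 libraries, with GRCh37 coordinates. The submitters' processing notes name cutadapt 1.9.1, HISAT2 2.0.1, HTSeq 0.6.1, DESeq2 and hg19, and the tool that estimated counts per transcript and its annotation release are not given in the sources used here. The values need not be whole. Whether and how that tool divided fragments of near copies among them is not known, and this sets the counts of single paralogs.

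For each gene, the estimated counts of its transcripts were added up and rounded. All 14573 genes that passed filterByExpr were fitted in edgeR 4.0.16 (glmQLFit, glmQLFTest, TMM, R 4.3.3), with Benjamini-Hochberg adjustment over all of them. A gene was called where its fold reached 2 with an adjusted p under 0.05. Standard errors were taken as the fold change over the root of the F statistic. Members were named where a library had at least 10 counts, and the other genes as the up to 3 with the smallest p in each list, with DNMT1, DNMT3A, DNMT3B, UHRF1, CTCFL, TRIM28 and TET1. Totals of 17442143 to 20295266 fragments limit precision, and intervals and floors cover counting error only. Sharing was counted over 100-base stretches of GENCODE release 44 transcripts on GRCh37, which had 147 members, and promoters came from RefSeq on GRCh38.p14.

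The test was checked on simulated data. The alternatives were DESeq2 1.42.0, RLE or library size scaling, other filters, a replicate block, unadjusted p-values, FPKM sums and leaving out each library. Leaving out the CTAGE genes and SSX2IP, or wholly shared genes, was chosen after seeing the data, as were 2 of the promoter motifs.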

Additional observations from a re-analysis of the deposited data

How the results depend on the processing

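The number of members called higher, 12, was also 12 with RLE factors, library size only, no filter, unadjusted p-values and without CTAGE genes and SSX2IP. DESeq2 called 10 of these 12 (without CT45A5 and MAGEA10), and 10 remained without wholly shared genes. The latter still include CT45A5, for which sharing could not be counted. Requiring 10 counts in every library left 3, since the 9 others had under 10 counts in an EV library. Leaving out each library gave 7 to 14, with 7 without TET1-CD replicate 2, where CT45A3, CT45A5, MAGEA10, MAGEA4 and PRAME were lost. XAGE1E, the 1 member called lower, was not called by DESeq2 or with 10 counts in every library (0 and 0), and leaving out a library gave 0 to 1: it was called without control replicate 1, and 0 were called without each of the others. Germ cell markers called, 2, became 0 with 10 counts in every library and 1 with DESeq2, and 0 to 2 on leaving out a library (0 without TET1-CD replicate 2 and 1 without TET1-CD replicate 1). Other cancer-testis genes called, 4, became 2 and 1 under these settings, and 5 with no filter, where DDX53 was gained. DDX53 had 187 and 0 counts in the EV libraries and, with TET1-CD, 1 and 0, so its call rested on 1 EV library. HORMAD1 and ZNF165 were lost on leaving out any 1 library, and PLAC1 on leaving out either TET1-CD replicate. DDX53 was gained without control replicate 2. Urothelial markers called, 2, became 1 with DESeq2 and 0 to 1 on leaving out a library (0 without TET1-CD replicate 1). The DNA methylation, partner, type II MAGE and other cell type lists had 0 calls in edgeR and DESeq2 under each setting, and 0 at an unadjusted p under 0.05 with the fold of 2. Apart from what the filter removes by construction, the cause of these differences was not tested.

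With a replicate block, 12 members were called higher, and 3 of the 4 other cancer-testis genes were called (HORMAD1 was not). Same-numbered libraries correlated by 0.00713 in their deviations from the group means over 14573 genes and by 0.217 over the 7286 above the median level, the labels name no shared culture, and with 2 pairs the numbers were not taken to pair the libraries. The log2 fold change of 6 uncalled members changed sign on leaving out 1 library. It ranged from -0.18 to 0.02 for CSAG1, -0.04 to 0.00 for MAGEA1 and -0.09 to 0.01 for MAGEA12, with the upper value without control replicate 2. It ranged from -0.14 to 7.83 for CTAGE4 and -0.06 to 0.36 for CTAGE8, with the lower value without control replicate 1, and from -0.42 to 0.12 for MAGEA2, with the upper value without that library. Depth limits the genes under about 10 counts, whose absence in EV cells means not detected at this depth.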
